A study of Mus musculus with 4 samples.

Results

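The genes described here are 95 cell cycle and DNA replication genes among the 23284 genes measured in mouse bone marrow-derived macrophages. They were taken by symbol. The set holds the cyclins A, B, D and E, the numbered cyclin-dependent kinases (CDKs), the Cdkn genes, and the numbered Mcm, Cdc and E2f genes. It also holds the Aurora, Bub and Polo-like kinase genes, with Mki67, Top2a, Pcna, Rrm1, Rrm2 and Birc5 added by name. Pseudogene symbols and the Cdc42 family were left out. Selection by symbol also brings in genes that are named after the cell cycle and do other work, and these are described apart.

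RNA from 4 groups of macrophages was measured, with 1 library per group: Spic-/- cells with lipopolysaccharide (LPS), Spic-/- cells without LPS, control (Spic+/+) cells with LPS and control cells without LPS. LPS, a cell wall component of Gram-negative bacteria sensed by Toll-like receptor 4, was given at 100 ng/ml for 4 h. Every culture, controls included, had first received hemin, the oxidised form of heme, for 18 h at 40 µM (the unit in the treatment protocol, while the sample descriptions write mM). Spi-C, the product of Spic, is a transcription factor of the Ets family, and heme is known to raise its expression in macrophages. Sample titles abbreviate the knockout as cKO, but the allele, any Cre driver, and the age, sex and number of mice were not stated in the sources used here. With 1 library per group no difference has a replicate check, and none was tested. The intervals below are exact 95% counting intervals, which cover counting error only and not the variation between cultures.

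A cell enters the cycle when D-type cyclins with CDK4 or CDK6, followed by cyclin E with CDK2, phosphorylate the retinoblastoma protein and free E2F transcription factors, which drive genes for DNA synthesis. The MCM complex is loaded on replication origins in G1 and unwinds DNA in S phase, while CIP/KIP and INK4 proteins hold the kinases back. Cyclins A and B with CDK1, the Aurora and Polo-like kinases, the Bub checkpoint proteins and the anaphase-promoting complex carry the cell through mitosis. Bone marrow-derived macrophages proliferate in culture under colony-stimulating factor 1, and LPS is known as a signal that stops their proliferation.

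Spic itself was listed at 80.8 FPKM (fragments per kilobase of exon after scaling for library size) in knockout with LPS and 14.98 FPKM in knockout without LPS, against 406 and 53.1 FPKM in the matching control libraries. The knockout to control ratio was 0.199 with LPS and 0.282 without LPS. Knockout libraries were thus lower in Spic in each LPS state but not at 0. The 9 macrophage markers found under their listed symbols were all at 1 FPKM or more in every library. The marker lists of the dendritic, mast, erythroid, B, T and NK, endothelial and progenitor cells each summed to between 0 and 2.2 FPKM. Stromal markers were present, at summed levels of 446 and 388 FPKM in knockout with and without LPS and 790 and 731 FPKM in control with and without LPS. The neutrophil list, led by S100a8, summed to 131 and 31.5 FPKM in knockout with and without LPS. In control it summed to 242 and 41.6 FPKM with and without LPS. Of its granule genes, Mpo, Elane and Prtn3 were at 0 or under 0.17 FPKM in every library. Others were present: Camp ranged from 1.47 to 4.82 FPKM, Ngp from 0.892 to 2.99 FPKM and Ltf from 0.244 to 0.734 FPKM. The part of either list in the differences below was not tested. The library with LPS was the shallower of each genotype: 1 FPKM stood for an estimated 8.07 fragments per kilobase in knockout with LPS, 12.95 in knockout without LPS, 10.6 in control with LPS and 15.6 in control without LPS.

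Of the 95 members, 55 reached 5 FPKM in at least 1 library and 41 reached it in all 4. A further 24 had their highest value between 1 and 5 FPKM, 11 stayed above 0 but under 1 FPKM, and 5 (Aurkc, Ccna1, Ccnb1ip1, Ccnb3 and Plk5) were listed at 0 everywhere. Summed over all members, the level was 2421 FPKM in knockout with LPS, 1685 FPKM in knockout without LPS, 2005 FPKM in control with LPS and 1539 FPKM in control without LPS. Cdkn1a alone made up 959 and 658 FPKM of the 2 sums with LPS, in knockout and control. It made up 179 and 160.0 FPKM of those without LPS. Without Cdkn1a, the sum of the other members was lower with LPS in each genotype. The sum over all genes was also higher with LPS, at 819232 FPKM in knockout with LPS, 525348 FPKM in knockout without LPS, 736818 FPKM in control with LPS and 500123 FPKM in control without LPS. As a share of these sums the members made up 0.296% in knockout with LPS, 0.321% in knockout without LPS, 0.272% in control with LPS and 0.308% in control without LPS. Their share was thus lower with LPS, while their sum was higher through Cdkn1a.

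LPS went with 2 contrasting sets of members. The genes of the replicative helicase, the D cyclin gene Ccnd1 and a few kinase genes were lower with LPS, while the inhibitor genes Cdkn1a and Cdkn1b, Ccne1, Cdk6 and the proliferation marker Mki67 were higher. Differences are given as log2 ratios of (FPKM + 1), which understate those of low genes, and a gene was counted at 2-fold or more if it reached 5 FPKM in at least 1 of the libraries compared. In knockout cells 6 of 55 members (10.9%) were higher with LPS, beside 13.7% of all 8098 genes that entered, and 9 (16.4%) were lower, beside 7.74%. In control cells 5 of 55 (9.09%) were higher, beside 12.3% of 8050 genes, and 7 (12.7%) were lower, beside 6.5%. At 1.5-fold or more, 13 members were higher and 17 lower in knockout, with 25.4% and 17% of all genes past that fold. The corresponding counts in control were 15 and 14, with 23.1% and 15.1% of all genes.

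The median log2 ratio of the 55 members was 0.10 in knockout and 0.09 in control, beside 0.12 and 0.11 over all genes that entered. The medians average over members that went both ways, and they depend on the minimum and on the scaling. With a minimum of 1 FPKM they were −0.17 in knockout and −0.13 in control, beside 0.02 and 0.02 over all genes, and with a minimum of 20 FPKM they were −0.073 and 0.075, beside 0.29 and 0.27. Scaling the libraries to equal upper quartiles put the median of all genes at −0.16 in knockout and −0.15 in control, and their 2-fold split at 813 higher and 1028 lower in knockout and 794 and 874 in control, against 1109 and 627 and 992 and 523 as deposited. Under that scaling 6 members were higher and 14 lower in knockout, and 5 and 13 in control. Of the 55 members, 53 had the same sign of the LPS ratio in both genotypes as deposited. Counting intervals of the LPS ratio lay above 1 for 25 members and below 1 for 23 in knockout, and for 25 and 21 in control. Neither the shared signs nor these intervals were counted over all genes, so they do not set the members apart from other genes.

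**Figure D1:**
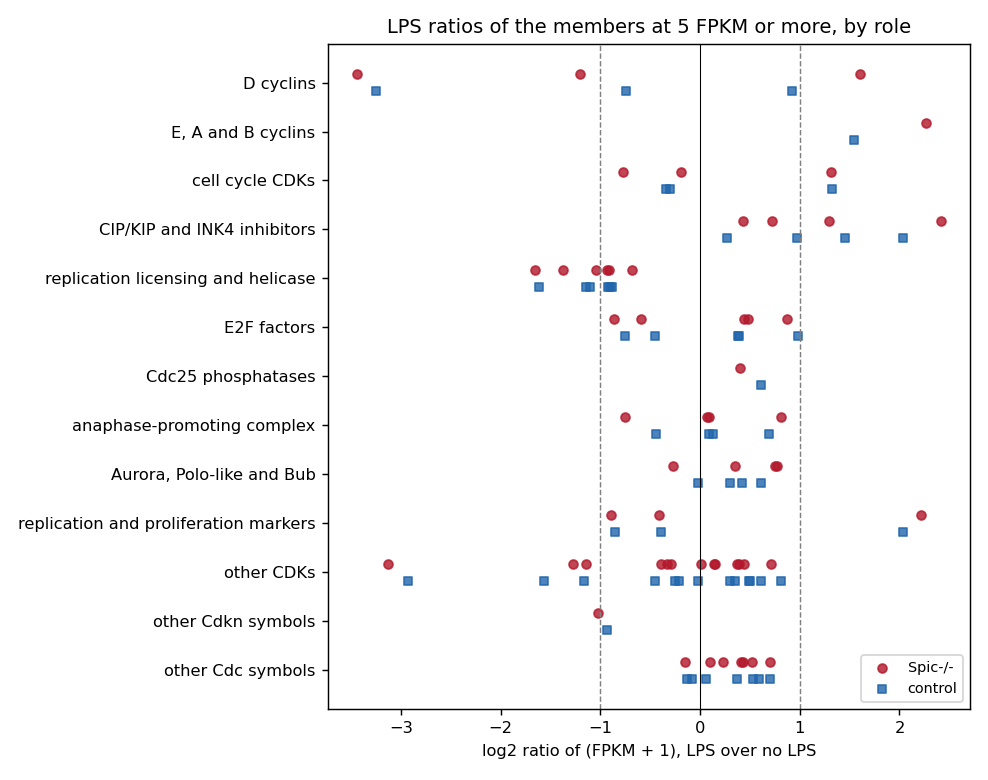
LPS log2 ratios of (FPKM + 1) for the 55 members at 5 FPKM or more, 1 point per gene, grouped by role, with Spic-/- as circles and control as squares. Dashed lines mark 2-fold; all 6 helicase points lie left of 0 in each genotype, all 4 inhibitor points lie right of it, and the 3 D cyclins spread from −3.44 to 1.60 in knockout and from −3.25 to 0.92 in control.

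The D cyclins, which pair with CDK4 and CDK6 in G1, did not share a direction. Ccnd1, the gene of cyclin D1, stood at 7.18 FPKM in knockout with LPS and 87.7 FPKM in knockout without LPS, and control had 5.68 FPKM with LPS and 62.7 FPKM without LPS. Both libraries with LPS were thus more than 10-fold below their partners. The log2 ratio was −3.44 in knockout and −3.25 in control, the 23rd lowest of 8098 genes and the 21st lowest of 8050. The ratio of FPKM was 0.0819 in knockout, with a counting interval of 0.0708 to 0.0943, and 0.0905 in control, with an interval of 0.0785 to 0.104. Ccnd1 lies on chromosome 7 at 144929931 to 144939925 (GRCm38) on the minus strand, where its exons overlap those of Oraov1 on the other strand. The strand setting of the counting was not stated in the sources used here, and Oraov1 had log2 ratios of −0.59 and −0.53 in knockout and control.

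Ccnd2, the gene of cyclin D2, went the other way. It stood at 17.9 FPKM in knockout with LPS and 5.21 FPKM in knockout without LPS, and control had 13.7 FPKM with LPS and 6.81 FPKM without LPS. The knockout library with LPS was the highest and the knockout library without LPS the lowest of the 4. The log2 ratio was 1.60 in knockout, past 2-fold, and 0.92 in control, short of it, while the ratio of FPKM in control was 2.02 (counting interval 1.82 to 2.24). Ccnd3, the gene of cyclin D3, was listed at 5.18 FPKM in knockout with LPS, 13.3 FPKM in knockout without LPS, 6.63 FPKM in control with LPS and 11.8 FPKM in control without LPS. Its log2 ratio was −1.21 in knockout and −0.74 in control, and the ratio of FPKM was 0.390 (counting interval 0.299 to 0.505) and 0.563 (0.454 to 0.694). Reads of Ccnd3 may be shared with Bysl on the other strand and with an annotated processed copy that has no row of its own.

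Without LPS, Ccnd1 had the highest FPKM of the 3 D cyclins in both genotypes. With LPS, Ccnd2 had the highest FPKM in both.

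Ccne1, the gene of cyclin E1, which partners CDK2 at the start of S phase, was higher with LPS. It stood at 11.5 FPKM in knockout with LPS and 1.59 FPKM in knockout without LPS, and control had 7.98 FPKM with LPS and 2.09 FPKM without LPS. Both libraries with LPS lay above both without it. The log2 ratio was 2.27 in knockout and 1.54 in control, and the ratio of FPKM was 7.22 (counting interval 5.03 to 10.6) and 3.83 (2.81 to 5.27). The other cyclins of this group stayed under 5 FPKM in every library. Ccna2, the S phase and mitotic cyclin A2, ranged from 2.52 to 3.33 FPKM, and the mitotic cyclin genes Ccnb1 and Ccnb2 ranged from 0.647 to 1.30 FPKM and from 0.580 to 1.20 FPKM.

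**Figure D2:**
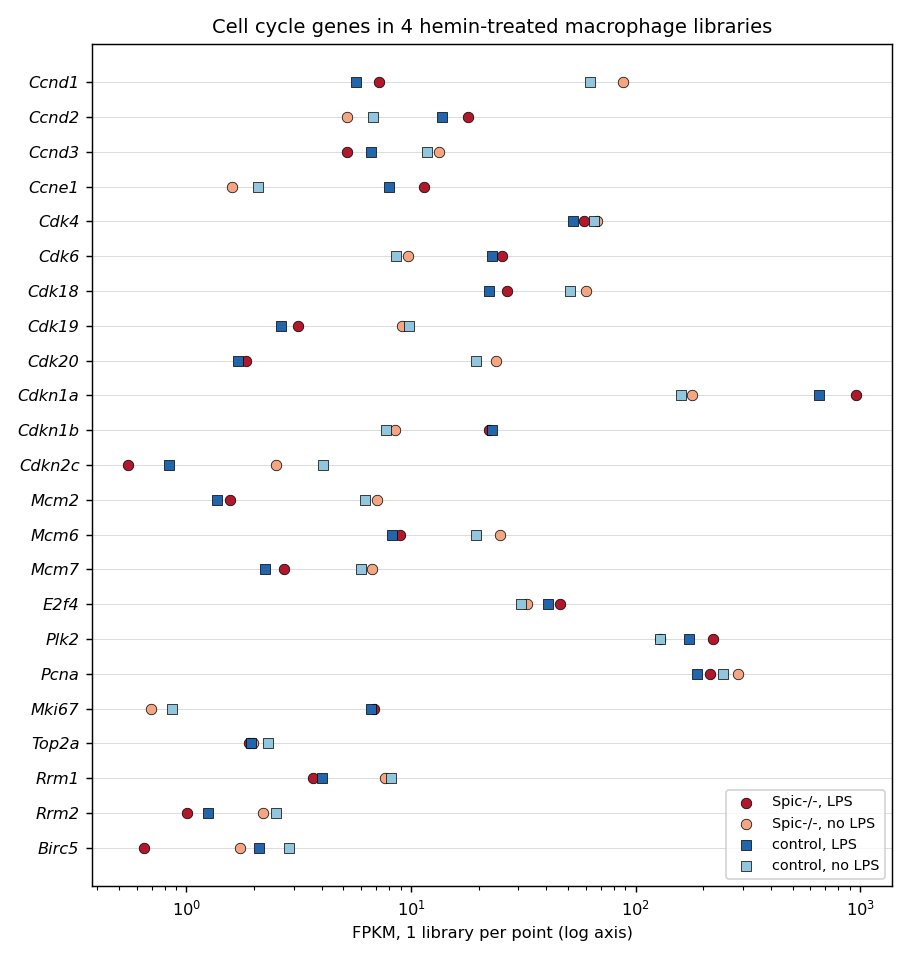
FPKM of selected members in each library on a log axis, 1 point per library (circles for Spic-/-, squares for control; darker with LPS). Ccnd1, Cdk20 and the Mcm genes lie to the left with LPS, at 7.18 and 5.68 FPKM for Ccnd1, and Ccne1, Cdkn1a and Mki67 to the right, while Cdk4 and Top2a keep their 4 points close together.

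Among the kinases that pair with these cyclins, Cdk6 was the only one counted at 2-fold. This G1 kinase gene stood at 25.5 FPKM in knockout with LPS and 9.67 FPKM in knockout without LPS, and control had 22.97 FPKM with LPS and 8.57 FPKM without LPS. The log2 ratio was 1.31 in knockout and 1.33 in control, with both libraries with LPS above both without. Cdk4, its close relative, was the most abundant of the group at 59.2 FPKM in knockout with LPS, 67.6 FPKM in knockout without LPS, 52.7 FPKM in control with LPS and 65.1 FPKM in control without LPS. Its log2 ratios were −0.19 and −0.30, with counting intervals of the FPKM ratio of 0.806 to 0.952 in knockout and 0.750 to 0.874 in control. Cdk4 exons overlap Tspan31 on the other strand, which had log2 ratios of 0.30 and 0.21. Cdk2, the partner of cyclins E and A, had log2 ratios of −0.77 in knockout and −0.34 in control. Cdk1, the mitotic kinase gene, was under 5 FPKM throughout, at 1.87 FPKM in knockout with LPS and 3.87 FPKM without, and 1.60 FPKM in control with LPS and 3.67 FPKM without.

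All 4 CIP/KIP and INK4 inhibitor genes that reached 5 FPKM were higher in the library with LPS, 2 of them past 2-fold in each genotype. Cdkn1a encodes p21, an inhibitor of CDK2 complexes and a target of p53. It was the most abundant member with LPS, at 959 FPKM in knockout with LPS and 179 FPKM in knockout without LPS, and 658 FPKM in control with LPS and 160.0 FPKM in control without LPS. By level it was the 134th gene of the knockout library with LPS and the 175th of the control library with LPS. The log2 ratio was 2.42 in knockout and 2.03 in control, and the ratio of FPKM was 5.37 (counting interval 5.09 to 5.68) and 4.11 (3.90 to 4.34). Cdkn1b, the gene of the CDK inhibitor p27, was listed at 22.3 FPKM in knockout with LPS, 8.51 FPKM in knockout without LPS, 23.01 FPKM in control with LPS and 7.77 FPKM in control without LPS. Its log2 ratios were 1.29 and 1.45, with both libraries with LPS above both without.

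The INK4 inhibitors, which bind CDK4 and CDK6, were lower in level and mixed. Cdkn2b, the gene of p15, had log2 LPS ratios of 0.72 in knockout and 0.97 in control, and Cdkn2d, the gene of p19INK4d, had 0.43 and 0.27. Cdkn2c, the gene of p18, did not reach 5 FPKM. It stood at 0.552 FPKM in knockout with LPS and 2.50 FPKM in knockout without LPS, and control had 0.840 FPKM with LPS and 4.06 FPKM without LPS. Both libraries with LPS lay below both without it, on an estimated 3.99 and 7.99 fragments, and the FPKM ratio had counting intervals of 0.0564 to 0.631 in knockout and 0.0852 to 0.436 in control.

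The helicase genes shared a direction. All 6 genes of the MCM2 to MCM7 ring were lower with LPS in both genotypes, with a median log2 ratio of −0.99 in knockout and −1.01 in control, and 3 of the 6 (Mcm2, Mcm6 and Mcm7) passed 2-fold in each. Their range was −1.65 to −0.68 in knockout and −1.61 to −0.89 in control. Each of the 6 stayed below 0 under every pseudocount and scaling tried. In RNA from whole cultures, fewer cells in a phase of the cycle and less RNA per cell cannot be told apart.

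Mcm2 stood at 1.57 FPKM in knockout with LPS and 7.08 FPKM in knockout without LPS, and control had 1.37 FPKM with LPS and 6.25 FPKM without LPS. Its log2 ratios were −1.65 and −1.61, and the ratios of FPKM were 0.221 (counting interval 0.155 to 0.309) and 0.219 (0.157 to 0.30). Mcm6, the highest of the ring in FPKM, stood at 8.97 FPKM in knockout with LPS and 24.9 FPKM in knockout without LPS, and control had 8.26 FPKM with LPS and 19.4 FPKM without LPS. The 2 libraries with LPS were nearly level for this gene, and its log2 ratios were −1.38 and −1.14. Mcm7 was listed at 2.72 FPKM in knockout with LPS, 6.67 FPKM in knockout without LPS, 2.24 FPKM in control with LPS and 5.96 FPKM in control without LPS. Its exons overlap Cops6 and Ap4m1 on the other strand, and Cops6, at 95.8, 81.9, 91.97 and 81.7 FPKM in the same order, had log2 ratios of 0.22 and 0.17. Mcm3, Mcm4 and Mcm5 were not counted at 2-fold, with log2 ratios of −0.68, −0.93 and −0.91 in knockout and −0.89, −0.91 and −0.92 in control. As ratios of FPKM, without the pseudocount, Mcm4 and Mcm5 were past 2-fold in each genotype, at 0.458 and 0.489 in knockout and 0.464 and 0.473 in control, and Mcm3 had 0.591 and 0.499.

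**Figure D3:**
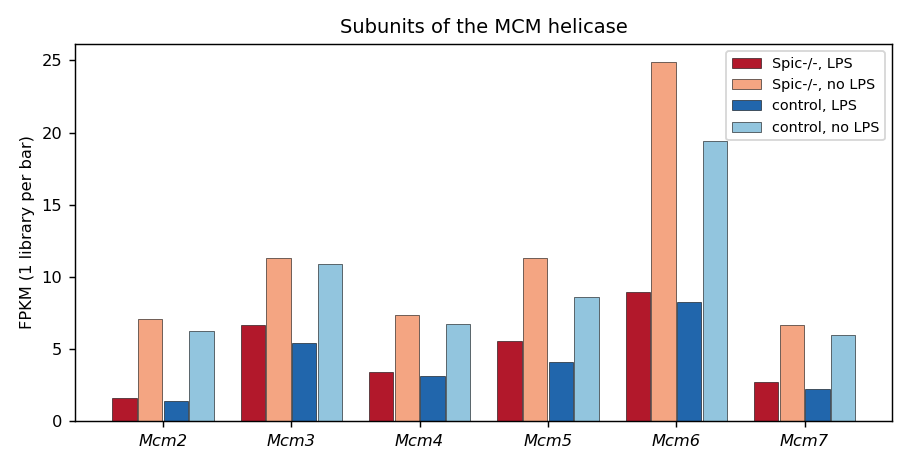
FPKM of the 6 helicase subunit genes, 1 bar per library, in the order Spic-/- with LPS, Spic-/- without LPS, control with LPS and control without LPS. In every gene both bars with LPS are lower than both without; Mcm6 has the highest bars, at 24.9 and 19.4 FPKM without LPS.

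Outside the ring, the other licensing and helicase genes were low and no value passed the 5 FPKM minimum. Mcm9, which acts in DNA repair with MCM8, was the highest of them, at 4.40 FPKM in knockout with LPS, 3.65 FPKM in knockout without LPS, 2.86 FPKM in control with LPS and 3.68 FPKM in control without LPS. It was the one gene of this role with opposite directions in the 2 genotypes among those with a value above 1 FPKM. Cdc45, which joins MCM in the active helicase, was listed at 0.557 and 1.83 FPKM in knockout with and without LPS and at 0.605 and 1.80 FPKM in control with and without LPS. Cdc6, the origin licensing factor gene, was listed at 0.258 and 0.804 FPKM in knockout and 0.0654 and 0.666 FPKM in control, again with and without LPS.

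Promoter sequences are shown for the ring because its genes shared a direction and E2F factors are known to bind MCM gene promoters. They are RefSeq windows (GRCm38.p6) from 250 bases before to 50 bases after the annotated start, printed 5′ to 3′ on the gene's strand, and Mcm4 had no window in the table used. Capitals mark matches to 4 spellings of an E2F-type element, TTTCGCGC, TTTGGCGC, TTTCCCGC and TTTGCCGC, searched on both strands. The windows lie at chr6:88898731-88899030 (minus strand, Mcm2), chr1:20820263-20820562 (minus, Mcm3), chr8:75109259-75109558 (plus, Mcm5), chr1:128359656-128359955 (minus, Mcm6) and chr5:138171834-138172133 (minus, Mcm7, 1 of 2 windows of that gene).
Mcm2: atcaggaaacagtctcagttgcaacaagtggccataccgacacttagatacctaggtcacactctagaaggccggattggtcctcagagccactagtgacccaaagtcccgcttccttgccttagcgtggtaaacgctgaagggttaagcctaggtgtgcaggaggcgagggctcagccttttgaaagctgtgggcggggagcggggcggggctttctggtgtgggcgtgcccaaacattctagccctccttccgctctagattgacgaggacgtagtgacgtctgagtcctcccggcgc
Mcm3: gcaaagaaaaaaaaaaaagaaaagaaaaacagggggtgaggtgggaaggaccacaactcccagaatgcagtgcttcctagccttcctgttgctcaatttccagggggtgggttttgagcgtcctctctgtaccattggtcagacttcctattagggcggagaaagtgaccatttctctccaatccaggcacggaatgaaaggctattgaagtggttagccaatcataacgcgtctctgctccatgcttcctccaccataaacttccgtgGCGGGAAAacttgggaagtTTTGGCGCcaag
Mcm5: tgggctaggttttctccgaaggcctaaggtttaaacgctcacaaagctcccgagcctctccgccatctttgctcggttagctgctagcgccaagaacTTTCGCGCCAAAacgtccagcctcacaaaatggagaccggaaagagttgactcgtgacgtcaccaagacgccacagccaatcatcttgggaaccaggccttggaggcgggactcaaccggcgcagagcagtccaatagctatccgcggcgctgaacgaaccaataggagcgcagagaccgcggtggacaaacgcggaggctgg
Mcm6: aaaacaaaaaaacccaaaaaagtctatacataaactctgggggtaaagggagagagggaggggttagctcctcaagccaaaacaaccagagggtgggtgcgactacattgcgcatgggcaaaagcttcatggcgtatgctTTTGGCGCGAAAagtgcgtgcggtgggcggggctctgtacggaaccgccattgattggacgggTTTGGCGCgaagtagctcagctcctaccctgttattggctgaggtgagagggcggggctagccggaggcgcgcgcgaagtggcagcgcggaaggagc
Mcm7: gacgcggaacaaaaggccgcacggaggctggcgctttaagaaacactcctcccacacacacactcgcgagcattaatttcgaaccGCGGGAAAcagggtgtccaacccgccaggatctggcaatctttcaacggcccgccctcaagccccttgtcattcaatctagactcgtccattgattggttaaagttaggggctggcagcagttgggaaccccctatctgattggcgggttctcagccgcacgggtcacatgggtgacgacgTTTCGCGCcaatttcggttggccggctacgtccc

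The letters occurred in 4 of these 5 windows. The second Mcm7 window, at chr5:138171217-138171516, held 0 matches and was not printed for that reason, so the Mcm7 window shown was chosen for its matches. Mcm3 had matches whose first bases lie 19 and 38 bases after the start, and Mcm7 had 1 starting 165 bases before it and 1 starting 16 bases after it. Mcm5 had 2 overlapping matches on opposite strands, starting 153 and 149 bases before the start. Mcm6 had 3, of which the 2 starting at 110 and 106 bases before the start overlap and the third starts at 47 bases before it. Mcm2 had none of these letters in its window, although it had the lowest LPS ratio of the ring in both genotypes. Among all 79 members with a window, 13 (16.5%) held a match, beside 2.61% of 27025 genes and 4.75% of the 6041 genes with a window that reached 5 FPKM in at least 1 library. No match was found in the 20 members with a window among the other CDK and other Cdc symbols. The shorter cell cycle homology element TTTGAA, also searched on both strands, was found in 21 members (26.6%), beside 20.2% of all genes with a window, and the windows of Mki67 and Top2a each held 2. A match is a description of letters and shows neither a bound site nor a cause.

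The E2F factors themselves did not share a direction. E2f1, an activator of S phase genes, stood at 7.26 FPKM in knockout with LPS and 14.0 FPKM in knockout without LPS, and control had 6.83 FPKM with LPS and 12.2 FPKM without LPS, with log2 ratios of −0.86 and −0.76. E2f2, another activator, was at 0.0547 FPKM in knockout with LPS and 1.09 FPKM in knockout without LPS, and control had 0.0624 FPKM with LPS and 1.44 FPKM without LPS. Those values rest on an estimated 2.0 and 3.0 fragments in the libraries with LPS and 64.0 and 102.0 in those without. The ratio of FPKM was 0.0501 in knockout (counting interval 0.00595 to 0.189) and 0.0434 in control (0.00880 to 0.130). E2f2 thus had the lowest FPKM ratio of the E2F genes, at a level where the (FPKM + 1) scale gives only −0.99 and −1.20.

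E2f4, which acts mainly in repressor complexes and had the highest FPKM of the family, was listed at 46.2 FPKM in knockout with LPS, 32.9 FPKM in knockout without LPS, 40.8 FPKM in control with LPS and 31.0 FPKM in control without LPS. Its log2 ratios were 0.48 and 0.39. E2f5, its relative, had 0.87 and 0.98, short of 2-fold on this scale in each genotype, and E2f3 had 0.44 and 0.38. E2f6, a repressor that does not depend on the retinoblastoma protein, had −0.60 and −0.45. No E2F gene at 5 FPKM passed 2-fold on this scale. As a ratio of FPKM, E2f5 had 1.94 in knockout (counting interval 1.55 to 2.43) and 2.15 in control (1.72 to 2.70). The atypical repressor genes E2f7 and E2f8 stayed under 1 FPKM everywhere.

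The replication and proliferation markers went in different directions. Mki67, which encodes the Ki-67 protein of dividing cells, stood at 6.86 FPKM in knockout with LPS and 0.697 FPKM in knockout without LPS, and control had 6.64 FPKM with LPS and 0.862 FPKM without LPS. Both libraries with LPS were far above both without. The log2 ratio was 2.21 in knockout and 2.04 in control, and the ratio of FPKM was 9.84 (counting interval 7.85 to 12.5) and 7.70 (6.39 to 9.35). Top2a, the topoisomerase gene that usually accompanies Mki67 in dividing cells, did not share that pattern. It was listed at 1.91 FPKM in knockout with LPS, 1.97 FPKM in knockout without LPS, 1.94 FPKM in control with LPS and 2.31 FPKM in control without LPS, and the counting interval of its LPS ratio held 1 in each genotype (0.718 to 1.29 and 0.652 to 1.07).

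Pcna, the sliding clamp of replication and repair, was abundant at 215 FPKM in knockout with LPS, 287 FPKM in knockout without LPS, 188 FPKM in control with LPS and 246 FPKM in control without LPS, with log2 ratios of −0.42 and −0.39. Reads of Pcna may be shared with 2 annotated processed copies that have no row of their own. Rrm1, the large subunit of ribonucleotide reductase, stood at 3.66 FPKM in knockout with LPS and 7.65 FPKM in knockout without LPS, and control had 4.03 FPKM with LPS and 8.12 FPKM without LPS. Its small subunit gene Rrm2 followed at 1.01 and 2.19 FPKM in knockout with and without LPS and 1.24 and 2.50 FPKM in control with and without LPS. The log2 ratio of Rrm1 was −0.89 in knockout and −0.86 in control, and the FPKM ratios of the 2 subunits were 0.479 and 0.458 in knockout and 0.497 and 0.498 in control. Birc5, the survivin gene of mitotic cells, was listed at 0.648 and 1.73 FPKM in knockout with and without LPS and 2.10 and 2.85 FPKM in control with and without LPS, on as few as an estimated 3.86 fragments.

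Many mitotic members were low, while the anaphase-promoting complex subunits and Bub3, described below, reached 5 FPKM. None of the mitotic members that reached 5 FPKM passed 2-fold. Aurka, Aurkb, Plk1, Bub1, Bub1b, Cdc20, Cdc25b and Cdc25c, which encode mitotic kinases, checkpoint proteins and activators of mitotic entry and exit, stayed under 5 FPKM in every library. Cdc25a, a phosphatase that activates CDK2, just reached 5 FPKM with LPS, at 5.15 FPKM in knockout with LPS and 3.66 FPKM in knockout without LPS, and control had 5.41 FPKM with LPS and 3.20 FPKM without LPS. Cdc25b was at 0.791 and 3.20 FPKM in knockout with and without LPS and 0.635 and 3.13 FPKM in control with and without LPS, with log2 ratios of −1.23 and −1.34 that lie past 2-fold but were not counted, so the 2 phosphatase genes differed in direction.

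The anaphase-promoting complex subunits Cdc16, Cdc23, Cdc26 and Cdc27 were between 4.86 and 50.3 FPKM. Cdc26, the highest, stood at 50.3 FPKM in knockout with LPS, 47.3 FPKM in knockout without LPS, 41.8 FPKM in control with LPS and 39.3 FPKM in control without LPS. Its log2 LPS ratios were 0.09 and 0.09 as deposited and changed sign when libraries were scaled to equal upper quartiles. Cdc27 had 0.81 and 0.69, and Cdc23 had −0.76 and −0.45. Bub3, a checkpoint protein gene, ranged from 39.8 to 53.4 FPKM, with ratios of 0.35 and 0.30.

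Of the Polo-like kinases, Plk2 and Plk3 are stress-responsive genes that are expressed outside mitosis. Plk2 stood at 220.5 FPKM in knockout with LPS and 129 FPKM in knockout without LPS, and control had 173 FPKM with LPS and 129 FPKM without LPS. The 2 libraries without LPS were level for this gene, and the log2 LPS ratios were 0.77 and 0.42. Plk3 had ratios of 0.75 and 0.61.

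A further 3 kinase genes that belong to the CDK family by symbol were lower with LPS in both genotypes. Cdk20 stood at 1.84 FPKM in knockout with LPS and 23.9 FPKM in knockout without LPS, and control had 1.69 FPKM with LPS and 19.4 FPKM without LPS. Its log2 ratios of −3.13 and −2.93 were the 31st lowest of 8098 genes and the 35th lowest of 8050. Cdk18, a PCTAIRE kinase gene, was listed at 26.8 FPKM in knockout with LPS, 60.5 FPKM in knockout without LPS, 22.2 FPKM in control with LPS and 51.0 FPKM in control without LPS, with ratios of −1.14 and −1.16. Cdk19, which encodes a kinase of the Mediator complex, was at 3.15 FPKM in knockout with LPS, 9.08 FPKM in knockout without LPS, 2.64 FPKM in control with LPS and 9.81 FPKM in control without LPS. Its paralog Cdk8 had log2 ratios of 0.14 in knockout and 0.49 in control, against −1.28 and −1.57 for Cdk19. The remaining CDK genes of this role at 5 FPKM, among them the transcription kinase genes Cdk7, Cdk9, Cdk12 and Cdk13, lay between −0.45 and 0.81 in control.

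Among the other symbols, Cdkn2aipnl, which encodes no CDK inhibitor, passed 2-fold in knockout alone. It stood at 10.6 FPKM in knockout with LPS, 22.6 FPKM in knockout without LPS, 10.5 FPKM in control with LPS and 21.1 FPKM in control without LPS, with log2 ratios of −1.02 and −0.94 that lie on either side of the threshold. The other Cdc symbols at 5 FPKM, 7 in number, had log2 ratios between −0.15 and 0.70 in knockout and between −0.13 and 0.71 in control. They include the ubiquitin-conjugating enzyme gene Cdc34, the Hsp90 co-chaperone gene Cdc37 and the splicing factor genes Cdc40 and Cdc5l. Cdc34 was one of the highest of them at 97.1 FPKM in knockout with LPS, 72.0 FPKM in knockout without LPS, 107.0 FPKM in control with LPS and 70.4 FPKM in control without LPS. Leaving out all symbols of these roles kept 33 members at 5 FPKM. In knockout 6 of these (18.2%) were higher and 5 (15.2%) lower, beside 13.7% and 7.74% of all genes. In control 5 (15.2%) were higher and 4 (12.1%) lower, beside 12.3% and 6.5%.

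The threshold of 2-fold separates close neighbours. Just inside it lay Mcm7 and Cdkn2aipnl in knockout, at −1.05 and −1.02, and just outside lay Mcm4 at −0.93, Mcm5 at −0.91 and Rrm1 at −0.89. In control Mcm7 was just inside at −1.10, while E2f5 at 0.98, Cdkn2b at 0.97, Mcm5 and Ccnd2 at −0.92 and 0.92 were just outside. Of the 24 members with a highest value between 1 and 5 FPKM, 17 had an LPS ratio below 0 in knockout and 19 in control. The share of all genes in that range was not computed. The median LPS ratio of all genes was also lower with a minimum of 1 FPKM, at 0.02 in knockout and 0.02 in control. It was 0.12 and 0.11 with 5 FPKM.

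Genes of the same pathways that are no members were read from lists by function. Of 42 DNA replication genes in the files, 26 reached 5 FPKM in the knockout pair, of which 0 were higher and 7 lower at 2-fold (26.9%, beside 7.74% of all genes), with a median log2 ratio of −0.61. In the control pair 21 entered, 0 were higher and 7 lower (33.3%, beside 6.5%), and the median was −0.63. These medians lie below the 0.12 and 0.11 of all genes that entered. Of the genes counted lower, only Rpa1 reached 5 FPKM in both libraries of either pair. The rest entered only through the library without LPS, where they were higher. Over all 42 genes without a minimum, the medians were −0.63 in knockout and −0.58 in control. Gmnn, the gene of geminin, which blocks re-licensing of origins, stood at 2.90 FPKM in knockout with LPS and 27.03 FPKM in knockout without LPS, and control had 2.94 FPKM with LPS and 25.0 FPKM without LPS, with log2 ratios of −2.84 and −2.72. Cdt1, the licensing factor that geminin binds, had −0.90 in knockout and −1.47 in control. Fen1, the flap endonuclease of Okazaki fragment processing, had −1.09 and −1.28, and Rpa1, which coats single-stranded DNA, had −1.24 and −1.12.

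Of 39 mitosis genes, only 4 reached 5 FPKM, and none of these passed 2-fold in either genotype. Of all genes, 13.7% were higher and 7.74% lower in knockout, and 12.3% and 6.5% in control. The median log2 ratio of the 4 was 0.32 in knockout and 0.31 in control. Over all 39 genes without a minimum it was −0.32 and −0.25. The median of all genes without a minimum is 0 in each genotype because so many are at 0 FPKM in both libraries. It is therefore no background for these 39 genes. Incenp, a partner of Aurora B, had log2 ratios of −0.93 and −0.60, while Mad2l1, a checkpoint gene, had 0.45 and 0.60. Smc4 and Pttg1, the condensin subunit and securin genes, had 0.30 and 0.33 in knockout and 0.35 and 0.28 in control. Of 21 genes of cell cycle transcription and control, 10 entered. Chek2, a DNA damage checkpoint kinase gene, was lower in both genotypes at −1.85 and −1.95, and Cks2, a CDK-binding subunit gene, was higher at 1.67 in knockout and 0.99 in control. Rb1, the retinoblastoma gene, had −0.54 and −0.69.

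Other targets of p53 than Cdkn1a were mixed. Of 18 such genes, 14 entered in knockout and 15 in control, and 3 were higher in each (21.4% and 20%, beside 13.7% and 12.3% of all genes). Gadd45a, a stress-response gene, stood at 133 FPKM in knockout with LPS and 17.9 FPKM in knockout without LPS, and control had 130.1 FPKM with LPS and 18.8 FPKM without LPS. Btg2, an antiproliferative gene, had log2 ratios of 2.02 and 1.93, and the death receptor gene Fas had 1.95 and 1.92. At 2-fold 1 gene was lower in each, 7.14% in knockout and 6.67% in control, beside 7.74% and 6.5% of all genes. It was Polk in knockout, at −1.04, and Trp53inp1 in control, at −1.42. Trp53inp1 had −1.43 in knockout as well but was not counted there. Its knockout values of 1.12 FPKM with LPS and 4.74 FPKM without LPS stayed under the minimum. The median of the p53 target list was 0.15 in knockout and 0.28 in control, beside 0.12 and 0.11 over all genes.

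The comparison of genotypes gave no member at 2-fold among those at 5 FPKM. Without LPS, 51 members entered and 0 were higher or lower in knockout, beside 0.49% and 0.412% of 7762 genes. With LPS, 49 entered and 0 were higher or lower, beside 0.493% and 0.4% of 7509 genes. Knockout to control log2 ratios of the members had medians of 0.08 with LPS and 0.11 without LPS, beside 0.09 and 0.07 over all genes, and ran from −0.86 to 0.54 with LPS and from −0.61 to 0.48 without. At 1.5-fold or more, 1 member was lower in each LPS state, the inhibitor gene Cdkn2b, and 0 were higher. Of all genes, 1.69% were lower and 2.86% higher past that fold with LPS, and 1.37% and 1.75% without LPS. With these 4 libraries, counting error alone left 27 of 49 intervals with LPS and 33 of 51 without LPS that held a ratio of 1. Of the rest, 18 lay above 1 and 4 below with LPS, and 16 above and 2 below without LPS. These intervals were not counted over all genes, whose median log2 ratio was also above 0 as deposited.

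Cdkn2b stood at 7.11 FPKM in knockout with LPS and 3.91 FPKM in knockout without LPS, and control had 13.7 FPKM with LPS and 6.48 FPKM without LPS. Each knockout library was lower than its control partner, with a ratio of 0.520 with LPS (counting interval 0.386 to 0.692) and 0.604 without LPS (0.435 to 0.831). Its neighbour Cdkn2a, which encodes p16 and p19ARF and lies 11645 bases away on chromosome 4, was also lower in knockout in each LPS state. It was listed at 0.860 FPKM in knockout with LPS and 0.602 FPKM in knockout without LPS, and control had 2.63 FPKM with LPS and 2.18 FPKM without LPS. These values rest on an estimated 4.45 to 21.9 fragments, and the ratios of 0.327 and 0.276 had counting intervals of 0.0874 to 0.952 and 0.0817 to 0.748. Stromal and neutrophil markers differed in the same comparison. Of the 10 stromal markers that reached 1 FPKM in at least 1 library, 9 were lower in knockout in each LPS state, with median log2 ratios of −0.66 with LPS and −0.78 without LPS, beside −0.86 and −0.61 for Cdkn2b. Of the 4 neutrophil markers at 1 FPKM, 3 were lower in knockout in each LPS state, with medians of −0.80 with LPS and −0.41 without LPS. Their part in the result was not tested.

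Members under 5 FPKM also had knockout to control ratios with counting intervals that left out 1. Birc5 had 0.309 with LPS (0.0731 to 0.967), Mcm9 had 1.54 with LPS (1.22 to 1.94), and the inhibitor genes Cdkn1c and Cdkn2c had 0.503 (0.255 to 0.946) and 0.615 (0.379 to 0.978) without LPS. The ratios that follow are of members that reached 5 FPKM in at least 1 library. Ccnd1 had a knockout to control ratio of 1.27 with LPS (counting interval 1.04 to 1.54) and 1.40 without LPS (1.34 to 1.46). The ratio of Cdkn1a was 1.46 with LPS (1.40 to 1.51) and 1.12 without LPS (1.04 to 1.19). Mcm5 had 1.35 (1.06 to 1.72) and 1.31 (1.14 to 1.496). The 6 ring genes had a median log2 ratio of 0.16 with LPS and 0.15 without LPS, and all 6 were above 0 in each state as deposited, whereas 2 of them with LPS and 1 without LPS were below 0 when libraries were scaled to equal upper quartiles. Mki67 had ratios of 1.03 (0.921 to 1.16) and 0.808 (0.611 to 1.07), so its intervals held 1 in each state.

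**Figure D4:**
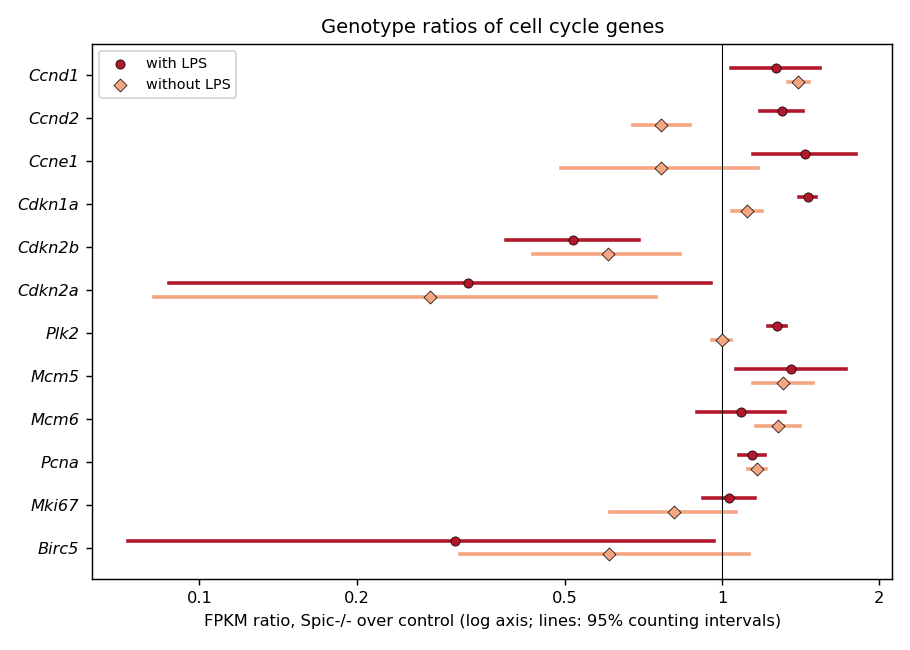
Knockout to control ratios of FPKM for 12 members on a log axis, with LPS (circles) and without LPS (diamonds); lines are 95% counting intervals, which cover counting error only. Cdkn2b and Cdkn2a lie left of 1 in both states, at 0.520 and 0.327 with LPS, while Ccnd2 and Ccne1 lie on different sides of 1 with and without LPS.

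The difference between the LPS responses of the genotypes was also under 2-fold for every one of the 55 members. In all genes 0.375% of 8272 were higher in that difference and 0.447% lower. At 1.5-fold, 2 members had a higher response in knockout, Ccne1 by 0.73 and Ccnd2 by 0.69 on the log2 scale, and 0 had a lower one, beside 1.38% and 1.6% of all genes. Counting intervals of the difference lay above 0 for 4 members (Ccnd2, Ccne1, Cdkn1a and Plk2), below 0 for 4 (Ccnd3, Cdc23, Cdk2 and Cdk8) and held 0 for 47. Intervals of the difference were not counted over all genes. For Ccnd2 the knockout to control ratio was 1.30 with LPS (counting interval 1.18 to 1.43) and 0.765 without LPS (0.675 to 0.867). For Ccne1 it was 1.44 (1.15 to 1.80) with LPS and 0.763 (0.491 to 1.17) without. Among the DNA replication genes that are no members, Gins1 was 2-fold or more lower in the difference, at −1.19. Gins1 is a subunit of the active helicase, and its partner Gins2 had 0.98. Gins1 reached 5 FPKM only in knockout without LPS, at 6.98 FPKM. It stood at 0.846 FPKM in knockout with LPS, and control had 1.61 FPKM with LPS and 3.94 FPKM without LPS. It thus entered only through the library whose higher value lowers its difference. No counting interval of the difference is given for these 2 genes. The difference was not tested, since 4 single libraries leave no spread to set it against.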

How the data were processed

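The deposited values were FPKM, 1 table per library with the same 23284 genes. Per the submitters' processing notes, the authors used Cuffnorm 2.2.1, TopHat2 2.0.13, SAMtools 0.1.19 and Bowtie2 2.2.3 with the mm10 build. The roles of these tools, the gene annotation and the strand setting were not stated in the sources used here. Per the labels' protocols, libraries were made with a stranded mRNA kit.

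From the FPKM values, log2 ratios with a pseudocount of 1 FPKM were computed between single libraries, as deposited and without rescaling. A gene entered with at least 5 FPKM in at least 1 library compared (of all 4 for the difference of responses) and was counted at 2-fold or more. Fragments were estimated from the spacing of low FPKM values, using 781 genes with 1 transcript in GENCODE vM21 and an effective length 210 bases below the transcript length. Of 1225 low values, 77.6% were whole numbers of fragments within 0.1 fragment. These estimates gave exact 95% counting intervals of ratios (Clopper-Pearson), and those of the difference of responses by a normal approximation. Python 3.11.15, numpy 2.4.6 and scipy 1.17.1 were used.

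Members at 2-fold in any comparison, the most abundant member of each role and 12 further genes were named by rule, with up to 4 genes of each pathway list by the size of the LPS ratio in control. Other members and pathway genes were named after their values were seen. The members and all lists were chosen with earlier results of these data known. Alternatives were a pseudocount of 0.1 or 5 FPKM, no minimum or one of 1 or 20 FPKM, scaling to equal upper quartiles or by median ratios, 1.5-fold as the threshold, and the set without other CDK, Cdc and Cdkn symbols. The list gene Ticrr was not analysed here.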

Additional observations from a re-analysis of the deposited data

How the results depend on the processing

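All alternatives are compared with a pseudocount of 1 FPKM, a minimum of 5 FPKM, 2-fold and no rescaling. The counts of members higher with LPS, 6 in knockout and 5 in control, became 13 and 15 at 1.5-fold and 3 and 3 with a minimum of 20 FPKM. In control they became 8 with a pseudocount of 0.1 FPKM and 3 with 5 FPKM. The counts of members lower with LPS, 9 in knockout and 7 in control, became 17 and 14 at 1.5-fold, 14 and 13 under upper quartile scaling, 4 and 3 with a pseudocount of 5 FPKM, 5 and 2 with a minimum of 20 FPKM, and 5 and 4 without the other CDK, Cdc and Cdkn symbols. Counts over all genes moved too. Higher with LPS, 1109 in knockout and 992 in control became 2054 and 1860 at 1.5-fold. They became 869 and 760 with a minimum of 20 FPKM, and in control 1076 and 787 with a pseudocount of 0.1 and 5 FPKM. Lower with LPS, 627 and 523 became 1375 and 1219 at 1.5-fold and 1028 and 874 under upper quartile scaling. They became 263 and 229 with a pseudocount of 5 FPKM and 210 and 183 with a minimum of 20 FPKM. At 1.5-fold, 1 member was lower in knockout in each LPS state and 2 had a higher response in knockout. The members' median LPS ratio lies close to 0 and changed sign in knockout to −0.17 with a minimum of 1 FPKM, −0.073 with 20 FPKM, −0.013 with none and −0.17 under upper quartile scaling. In control it changed sign to −0.13 with a minimum of 1 FPKM, −0.082 with none and −0.16 under upper quartile scaling. That scaling also gave medians of −0.065 for knockout with LPS and 0.0030 for knockout without LPS. The cause was not tested, other than that scaling shifts all genes together.

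Of the 27 LPS ratios of single members counted at 2-fold, 16 stayed there under every pseudocount and scaling tried, and the other 11 dropped under it with a pseudocount of 5 FPKM alone. None of them changed sign. No paired analysis was possible because each group has 1 library. For the same reason no library could be left out. Depth limits the low members: 1 fragment in a 2 kb transcript equalled 0.0692 FPKM in knockout with LPS and 0.0357 FPKM in control without LPS.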
